A study of Homo sapiens with 8 samples.

Results

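The cell builds ribosomes with a large set of nucleolar proteins, and the 42 genes described here encode members of it: small nucleolar ribonucleoproteins (snoRNPs) that modify ribosomal RNA, helicases, assembly factors of both subunit precursors, nucleolar chaperones and subunits of RNA polymerase I. They were taken by gene symbol from a given list, a rule that itself uses no measured value, although the list was chosen with earlier results of these data known. All 42 were among the 18656 gene symbols analysed. All 42 also passed the filter of a level of at least 1 TPM (a transcript abundance normalised for length and library) in at least 2 libraries, as did 11894 genes in all. The data are total RNA libraries, depleted of ribosomal RNA, from SW480, an established human colorectal cancer cell line in which Wnt signalling is constitutively active. Of the 8 libraries analysed here, 2 came from cells given a negative-control siRNA and labelled 0 h, and 2 each from cells given an siRNA against TCF7L2 for 24, 48 and 72 h. TCF7L2 is a DNA-binding partner of beta-catenin. The siRNAs were delivered with the lipid reagent RNAiMAX, and the cells were otherwise grown alike in RPMI medium with serum. The labels do not say that replicates were separate cultures, so p-values measure the spread between these libraries, which may be technical. As deposited this spread is shared by genes of like level and is not each gene's own. The control siRNA was sampled at 0 h only, so effects of the siRNA against TCF7L2 and of the hours in culture cannot be told apart. In a bulk library, less of a transcript per cell and fewer cells with the transcript cannot be told apart either.

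RNA polymerase I transcribes the long ribosomal RNA precursor in the nucleolus. Box C/D snoRNPs guide ribose methylation and box H/ACA snoRNPs guide pseudouridylation of this precursor, while the small subunit processome and the factors of the large subunit precursor fold it, cut it and load the ribosomal proteins. In many cell types MYC raises these genes together through the E-box CACGTG, and in colorectal cancer MYC is itself a known target of beta-catenin and TCF7L2, which is the reason to look at this set after TCF7L2 silencing.

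The sequences around start sites show how common that E-box is among the members. The given list describes most of its genes as MYC-responsive, so this share is not independent of how the list was made. Windows of 300 bases, 250 before to 50 after an annotated start, were taken from RefSeq (GRCh38.p14) for 35 of the 42 members, 43 windows in all. The letters CACGTG, which read the same on both strands and were searched without any other motif, stood in 19 of 43 member windows (44.2%), against 7.26% of all 35116 windows and 9.40% of the 14159 windows of genes that passed the filter. Counted by gene, 18 of 35 members (51.4%) and 12.8% of 9631 genes tested had the motif in at least 1 window. Of the 21 member sites 14 began within the 50 bases after the start, which held the motif in 32.6% of member windows, in 1.05% of the windows of tested genes and in 0.883% of all windows. The median GC content was 63.7% in member windows and 64.7% in those of tested genes. The following 8 sites are shown because DDX21, NOC3L, NME1, UTP20 and FBL fell at 72 h, while MYBBP1A, EBNA1BP2 and NOP10 did not, so that sites from both kinds of member can be compared. Each runs 5′ to 3′ on the gene's strand with the E-box in capitals.
DDX21: ccgggtgtccCACGTGgtccccggcg
NOC3L: gggacttcggCACGTGtgtcattccc
NME1: tgctgcgaacCACGTGggtcccgggc
UTP20: tttttccgtcCACGTGacccactcag
FBL: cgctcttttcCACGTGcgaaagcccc
MYBBP1A: ggccggagcaCACGTGtttcgtgttt
EBNA1BP2: gattcggtggCACGTGga
NOP10: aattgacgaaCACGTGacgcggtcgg
These stretches lie at chr10:68956606-68956631 (DDX21, plus strand), chr10:94362905-94362930 (NOC3L, minus), chr17:51153583-51153608 (NME1, plus) and chr12:101280085-101280110 (UTP20, plus). The others lie at chr19:39846358-39846383 (FBL, minus), chr17:4555342-4555367 (MYBBP1A, minus), chr1:43172241-43172258 (EBNA1BP2, minus, ended by the window's edge) and chr15:34343132-34343157 (NOP10, minus). Counted from +1 at the annotated start, the first base of the motif is at +20 in NOC3L, +35 in NME1, +7 in FBL, +28 in MYBBP1A and +43 in EBNA1BP2, and at -31 in DDX21, -10 in UTP20 and -11 in NOP10. A match is a run of letters and not a measured binding site. Among the 35 members, the 18 with the motif had a median log2 change of -0.54 at 72 h (range -1.42 to -0.04) as deposited. The 17 without it had -0.48 (range -0.77 to -0.22), which lay inside the range with it. After the median-ratio scaling described below the medians were -0.32 and -0.28. In both analyses 12 of each fell, against 31.2% of all tested genes lower as deposited and 26.2% after scaling. The unmatched members, BOP1, RRS1, DDX18, NOLC1, NOP58, RRP12 and RRP1B, were not searched.

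Read depth is unknown, since TPM keeps none. Listed TPM summed to between 448107.5 and 485601.5 in 7 libraries and to 352455.7 in the second 72 h library, where all 42 members lay below the first 72 h library as deposited. The main counts and medians are therefore given on the deposited values and again after median-ratio scaling. In that scaling each library is divided by the median over genes of its ratio to their geometric mean. Values of single genes are as deposited where scaling is not named. Scaling moved the members' median log2 change at 72 h from -0.51 to -0.29. The factors were 0.804 for the second 72 h library and 0.987 to 1.07 for the others. The median log2 change of all tested genes at 72 h was -0.19 as deposited and 0.00 after scaling. Markers of colorectal epithelium were present, with all 8 listed genes reaching 1 TPM and sums of 3140 to 4220 TPM per library. Sums over 3 endothelial and 4 fibroblast markers were 0.09 to 0.59 and 1.76 to 4.62 TPM, and the haematopoietic list was at 2.23 to 22.0 TPM, nearly all of it CD68. CD68 itself was higher late, with 3.55 and 2.15 TPM at 0 h and 21.8 and 19.3 at 72 h, while PTPRC, the defining leukocyte marker, was at most 0.63 TPM in any library. The part of CD68-bearing cells in the members' changes was not tested. TCF7L2 had 6.86 and 7.47 TPM at 0 h, then 5.82 and 5.05 at 24 h, 4.92 and 4.07 at 48 h and lastly 4.07 and 3.53 at 72 h. MYC had 442 and 440.4 TPM at 0 h, then 351 and 340.3 at 24 h, 328 and 331 at 48 h and lastly 255 and 210.4 at 72 h. Both genes were lower in every siRNA library than in both control libraries, and at 72 h TCF7L2 had a log2 change of -0.77 ± 0.17 (adjusted p = 2.98e-05) and MYC of -0.93 ± 0.17 (adjusted p = 6.31e-07). After scaling these changes were -0.58 ± 0.11 (adjusted p = 0.00197) and -0.71 ± 0.04 (adjusted p = 1.68e-06). Scaled TCF7L2 had 4.67 and 3.83 TPM at 48 h and 3.93 and 4.39 at 72 h. Those 2 pairs overlapped, so a further fall of TCF7L2 after 48 h was seen only as deposited.

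In the control cells the members ranged in level from 12.2 to 1463 TPM. NPM1, which encodes the chaperone nucleophosmin, was highest with 1463 and 1426 TPM, but processed pseudogenes may share its reads. NCL, which encodes nucleolin, followed with 689 and 679 TPM, then NOP56 with 398 and 384 and FBL with 303 and 322. NME1 came next with 207 in each library and is uncertain too, because it shares a readthrough transcript and close similarity with NME2. The lowest members were RRS1 with 16.6 and 15.4 TPM, BYSL with 12.6 and 15.0 and UTP20 with 12.2 and 12.4. The control pairs of these 3 did not overlap with each other, nor did those of NPM1, NCL, NOP56, FBL and NME1, although the pair of BYSL lay wide apart. All 42 members together held 1.12 and 1.11% of the listed TPM in control cells. The shares were 1.07 and 1.06% after 24 h, 0.993 and 0.961% after 48 h, and 0.979 and 0.948% after 72 h. This share does not depend on the scaling of a library, and at every siRNA time both libraries lay below both controls.

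The question of the design was how the members moved after silencing, time by time. At 72 h 30 of 42 members fell and 0 rose on the deposited values, against 31.2% of all tested genes lower and 10.5% higher, with a median log2 change of -0.51 for the members and -0.19 for all genes. After scaling 30 fell and EBNA1BP2 alone rose, against 26.2% of all genes lower and 25.8% higher, with medians of -0.29 and 0.00. The same 30 genes fell in both. Counts with a library left out, here and below, are given without the share of all tested genes. They show how far a count moves and do not set the members apart from other genes. With a lone control the deposited count was 17 of 42 (first 0 h library left out) or 13 (second left out). Without the second 72 h library it was 30 as deposited and 24 after scaling, and without the first it was 42 as deposited. The pair at 72 h lay wholly below the control pair in 36 members and above it in 0 as deposited, against 47.4 and 17.4% of all tested genes. After scaling this held for 34 and 2 members, against 37.8 and 37.6% of all tested genes. Members below the median change of all genes numbered 38 of 42 as deposited and 37 after scaling.

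**Figure D1:**
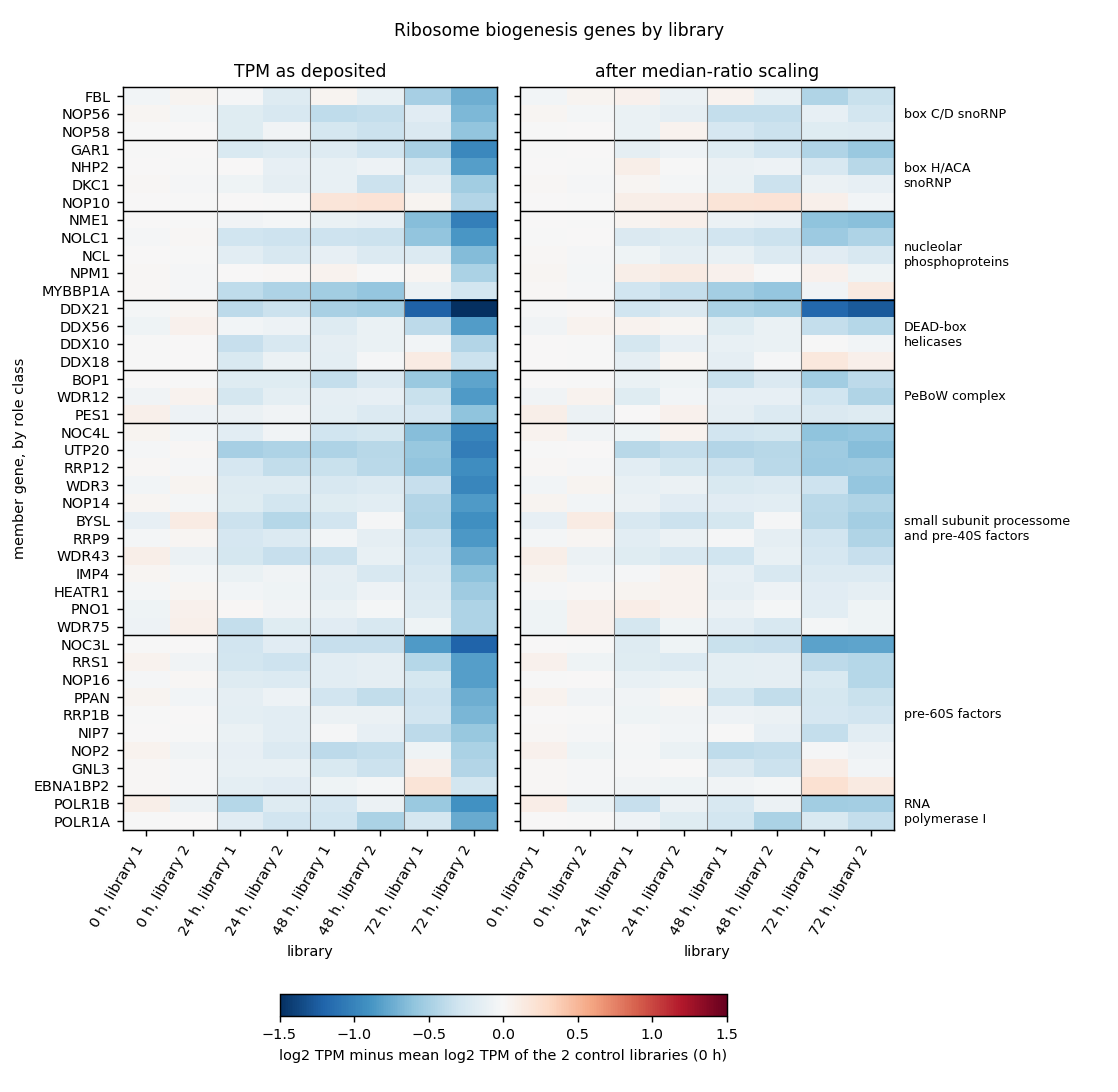
Log2 TPM of each of the 42 members (rows, grouped by role class and ordered within it by the 72 h change) in each of the 8 libraries (columns), minus the mean of the 2 control libraries, as deposited (left) and after median-ratio scaling (right). Blue is lower and red higher than the control mean. The second 72 h library is darker than the first on the left, and after scaling the pair looks alike, with DDX21 and NOC3L the darkest rows.

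At 48 h 2 members, MYBBP1A and DDX21, fell on the deposited values, 0 rose, and the median was -0.17, against 3.14% of all genes lower, 4.61% higher and a median of -0.02. Each of these 2 calls was lost when any 1 of the 0, 24 or 48 h libraries was left out, and leaving out either 72 h library raised the count to 19. After scaling 17 members fell and NOP10 rose, against 11.5% of all genes lower and 12.0% higher, with medians of -0.16 and -0.01. The 48 h pair lay wholly below the controls in 37 members and above in 1 as deposited, against 35.3 and 30.7% of all genes, and in 34 and 1 after scaling, against 34.5 and 31.9%. At 24 h 0 members were called in limma's test either way, against 0.252% of all genes lower and 0.21% higher as deposited, and 0.437 and 0.647% after scaling. The 24 h pair lay wholly below the controls in 35 members and above in 0 as deposited, against 46.7 and 10.8% of all genes, and in 22 and 4 after scaling, against 24.9% each way. The unadjusted p of limma was under 0.05 for 4 members as deposited and 9 after scaling, against 7.14 and 16.5% of all genes. The median was -0.18 against -0.09 for all genes as deposited, and -0.09 against 0.00 after scaling. Without the first or the second 72 h library the 24 h count as deposited was 7 in each case. In the plot of cumulative distributions the members' median lies to the left of that of all genes at each time, while in the lower tail the curves meet or cross.

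**Figure D2:**
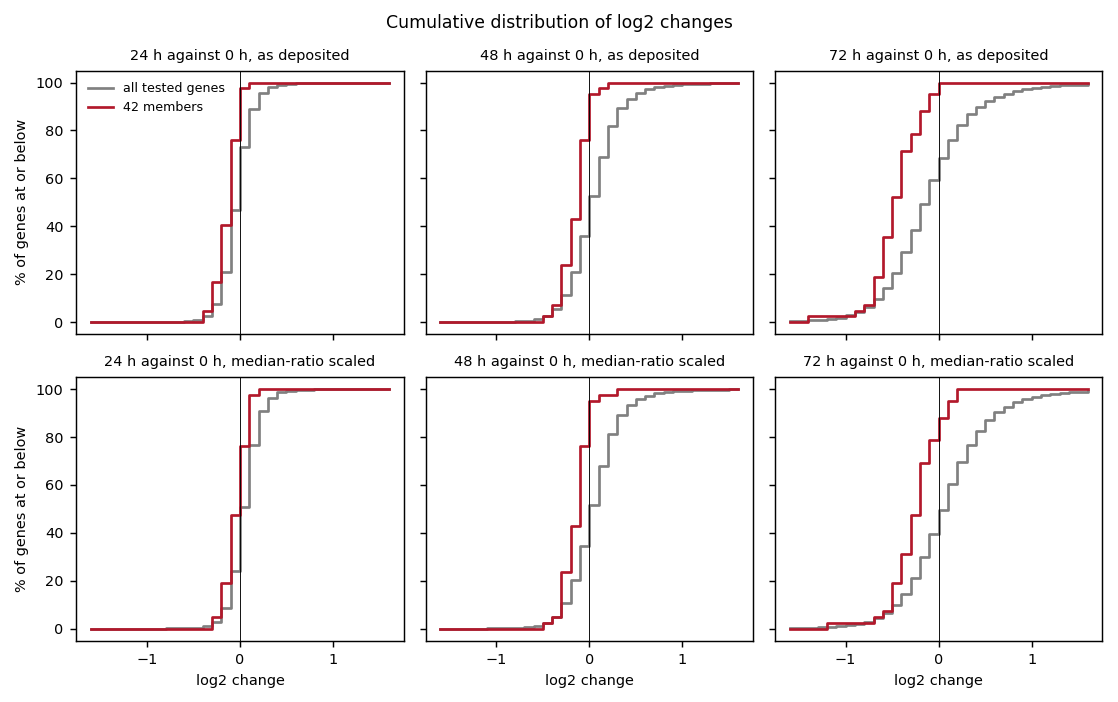
Percent of genes (vertical axis) with a log2 change at or below the value on the horizontal axis, for the 42 members (red) and all 11894 tested genes (grey), at 24, 48 and 72 h against 0 h, as deposited (top) and after median-ratio scaling (bottom). The 3 comparisons share their control libraries. At 72 h the median of the members was -0.51 as deposited and -0.29 after scaling, against -0.19 and 0.00 for all genes.

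The DEAD-box helicases, which remodel RNA at the cost of ATP, held both the largest fall of the 42 and one of the highest values. DDX21, a helicase of ribosomal RNA processing and of RNA polymerase I and II transcription, had 122 and 127 TPM at 0 h, then 95.1 and 99.6 at 24 h, 88.8 and 86.9 at 48 h and lastly 53.6 and 39.4 at 72 h. Its level was lower at each later time with no overlap between neighbouring groups. The log2 change was -0.35 ± 0.16 (adjusted p = 0.597) at 24 h, -0.50 ± 0.16 (adjusted p = 0.0319) at 48 h and -1.42 ± 0.16 (adjusted p = 1.47e-16) at 72 h, and after scaling -1.20 ± 0.05 (adjusted p = 2.61e-07) at 72 h. Of that fall, -0.92 ± 0.16 came between 48 and 72 h (adjusted p = 6.98e-07). DDX56, a nucleolar helicase of large subunit assembly, had 71.3 and 77.8 TPM at 0 h, then 72.6 and 70.6 at 24 h, 65.2 and 69.7 at 48 h and lastly 56.6 and 41.7 at 72 h. The 0 and 24 h pairs of DDX56 overlapped, the 48 h pair lay just below them, and both 72 h libraries were the lowest (log2 change -0.61 ± 0.16, adjusted p = 0.000891). DDX18 had 80.3 and 80.5 TPM at 0 h, then 68.7 and 75.9 at 24 h, 72.6 and 79.3 at 48 h and lastly 87.5 and 64.2 at 72 h. Its 72 h libraries lay on either side of the controls as deposited (-0.10 ± 0.16, adjusted p = 0.647) and both above them after scaling (0.12 ± 0.07, adjusted p = 0.157), and neither value passed the test. DDX10 had 25.9 and 26.1 TPM at 0 h and 25.2 and 19.2 at 72 h, a log2 change of -0.23 ± 0.16 (adjusted p = 0.24).

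Among factors of the large subunit precursor, 6 of 9 fell at 72 h in both analyses, against 31.2% of all tested genes as deposited and 26.2% after scaling. NOC3L, which acts in the assembly and nuclear transport of that precursor, had 17.7 and 17.8 TPM at 0 h, then 14.6 and 15.8 at 24 h, 14.0 and 13.9 at 48 h and lastly 9.90 and 7.75 at 72 h. The 4 groups did not overlap, and the 72 h change was the second largest of the members at -0.94 ± 0.16 (adjusted p = 8.45e-08), and -0.74 ± 0.07 (adjusted p = 3.16e-05) after scaling. RRS1, needed to bring the small 5S particle into the precursor, had 16.6 and 15.4 TPM at 0 h, then 13.2 and 12.9 at 24 h, 14.3 and 14.5 at 48 h and lastly 11.9 and 8.99 at 72 h. Both 72 h libraries of RRS1 were below all others, with a log2 change of -0.58 ± 0.16 (adjusted p = 0.00141). NOP16, PPAN, RRP1B and NIP7 fell by 0.46 to 0.53 on the log2 scale as deposited and by 0.25 to 0.32 after scaling, PPAN being uncertain because of a readthrough gene with P2RY11. The other 3 members of the class were not called as deposited. EBNA1BP2, a nucleolar assembly factor, had 53.6 and 52.7 TPM at 0 h, then 48.0 and 47.3 at 24 h, 50.7 and 51.9 at 48 h and lastly 60.6 and 44.1 at 72 h. Its 72 h libraries were at once the highest and the lowest of the 8 as deposited (-0.04 ± 0.16, adjusted p = 0.867), and after scaling both lay above all the others, where the change passed the test (0.18 ± 0.05, adjusted p = 0.0177). NOP2, a methyltransferase of large subunit RNA, had 94.1 and 86.9 TPM at 0 h, then 83.2 and 78.6 at 24 h, 69.0 and 70.3 at 48 h and lastly 86.7 and 64.9 at 72 h. GNL3, the nucleolar GTPase nucleostemin, had 120.1 and 118 TPM at 0 h, then 110.4 and 110.2 at 24 h, 102 and 94.9 at 48 h and lastly 126 and 87.9 at 72 h. In both genes the 48 h pair lay below the control and 24 h pairs, and the first 72 h library stood well above the 48 h pair.

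The PeBoW complex of BOP1, PES1 and WDR12 processes the large subunit RNA. All 3 of its genes fell at 72 h, as did 31.2% of all tested genes as deposited and 26.2% after scaling. BOP1 had 46.1 and 45.9 TPM at 0 h, then 40.6 and 40.7 at 24 h, 36.0 and 39.6 at 48 h and lastly 31.2 and 26.6 at 72 h. Its level was lower at 48 h and 72 h than at 0 and 24 h without overlap, with a log2 change of -0.66 ± 0.16 (adjusted p = 0.000257) at 72 h. WDR12 had 60.2 and 65.1 TPM at 0 h, then 52.1 and 56.4 at 24 h, 57.1 and 57.5 at 48 h and lastly 49.7 and 34.7 at 72 h, and its 72 h change was -0.58 ± 0.16 (adjusted p = 0.00145). PES1 fell by 0.42 ± 0.16 (adjusted p = 0.0255), from 74.9 and 67.3 TPM to 59.6 and 46.8. After scaling the change of PES1 was -0.20 ± 0.06 (adjusted p = 0.0209). The ratio of PES1 to BOP1 TPM, which no scaling of a library can move, was 1.62 and 1.47 at 0 h and 1.91 and 1.76 at 72 h, so PES1 was the less reduced of the pair in these libraries.

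**Figure D3:**
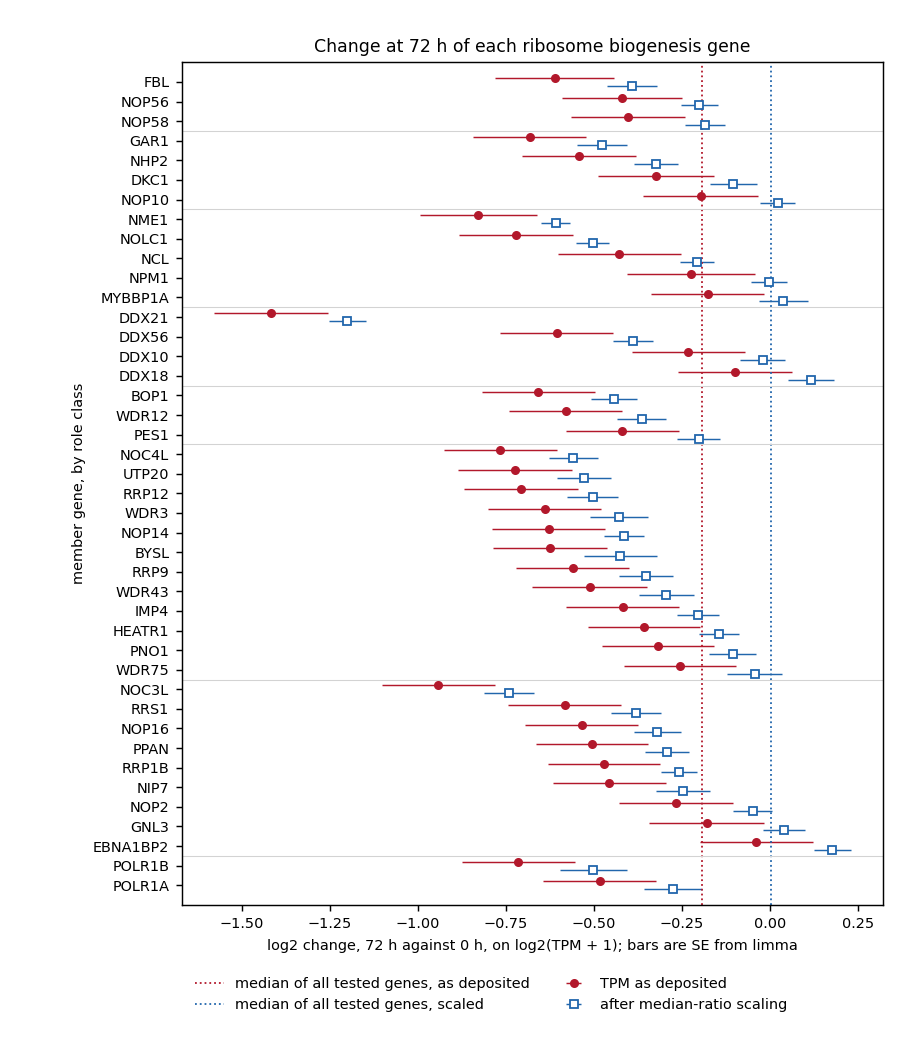
Log2 change at 72 h against 0 h of each of the 42 members with its SE, as deposited (filled circles) and after median-ratio scaling (open squares). Dotted lines mark the median of all tested genes in each analysis, -0.19 and 0.00. DDX21 lies farthest left at -1.42 and -1.20, and EBNA1BP2 farthest right at -0.04 and 0.18.

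The small subunit processome and the factors of the small subunit precursor formed the largest class. In both analyses 9 of 12 fell at 72 h, against 31.2% of all tested genes as deposited and 26.2% after scaling. NOC4L had 23.4 and 22.0 TPM at 0 h, then 20.4 and 21.8 at 24 h, 18.5 and 18.8 at 48 h and lastly 14.6 and 11.5 at 72 h. As deposited the 4 pairs did not overlap and each lay below the one before it, to a log2 change of -0.77 ± 0.16 (adjusted p = 1.7e-05). After scaling the 24 h pair of NOC4L (20.4 and 22.1) overlapped the 0 h pair (22.1 and 20.6). Its scaled 72 h change was -0.56 ± 0.07 (adjusted p = 0.000137). UTP20, a very large processome protein, had 12.2 and 12.4 TPM at 0 h, then 8.67 and 8.87 at 24 h, 8.92 and 9.19 at 48 h and lastly 8.25 and 5.98 at 72 h. All 6 siRNA libraries lay below both controls. The log2 change at 24 h was -0.44 ± 0.16 (adjusted p = 0.338), which did not pass the test, and at 72 h it was -0.72 ± 0.16 (adjusted p = 6.45e-05). RRP12, WDR3, NOP14, BYSL, RRP9, WDR43 and IMP4 fell by 0.42 to 0.71 as deposited and by 0.20 to 0.50 after scaling. RRP9, IMP4 and WDR3 are processome proteins associated with the U3 snoRNP, and BYSL (bystin) acts late on the small subunit precursor. HEATR1 (-0.36 ± 0.16, adjusted p = 0.059), PNO1 (-0.32 ± 0.16, adjusted p = 0.0963) and WDR75 (-0.26 ± 0.16, adjusted p = 0.191) did not pass the test. After scaling the changes of HEATR1, PNO1 and WDR75 were -0.15, -0.11 and -0.04, and none of them passed. HEATR1, WDR43 and WDR75 belong to the early processome subcomplex that is also tied to RNA polymerase I transcription. Of these 3 WDR43 passed the test, and the difference between them was not tested.

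All 3 genes of the box C/D snoRNP proteins fell at 72 h in both analyses, against 31.2% of all tested genes as deposited and 26.2% after scaling. The methyltransferase FBL (fibrillarin) had 303 and 322 TPM at 0 h, then 308 and 273 at 24 h, 321 and 288 at 48 h and lastly 222 and 188 at 72 h. The first 3 groups of FBL overlapped, and the 72 h pair was below them all, with -0.61 ± 0.17 (adjusted p = 0.00134) against 0 h and -0.57 ± 0.17 against 48 h (adjusted p = 0.00514). NOP56, which scaffolds the particle, had 398 and 384 TPM at 0 h, then 344 and 331 at 24 h, 301 and 304 at 48 h and lastly 349 and 244 at 72 h. The second 72 h library was the lowest and the first stood above the 48 h pair, and the change was -0.42 ± 0.17 (adjusted p = 0.0342) as deposited and -0.20 ± 0.05 (adjusted p = 0.0107) after scaling. NOP58, its partner, fell by 0.40 ± 0.16 (adjusted p = 0.0341) as deposited. After scaling the change of NOP58 was -0.18 ± 0.06 (adjusted p = 0.021). The TPM ratio of NOP56 to NOP58 stayed between 2.99 and 3.53 in all 8 libraries, while that of FBL to NOP56 was 0.762 and 0.839 at 0 h, 1.07 and 0.947 at 48 h, but 0.637 and 0.769 at 72 h.

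Of the 4 box H/ACA proteins, GAR1 and NHP2 fell at 72 h in both analyses, against 31.2% of all tested genes as deposited and 26.2% after scaling. GAR1 had 21.6 and 21.9 TPM at 0 h, then 18.6 and 19.1 at 24 h, 19.0 and 17.6 at 48 h and lastly 15.5 and 11.2 at 72 h. All 6 siRNA libraries of GAR1 were below both controls and the 72 h pair was the lowest, with -0.68 ± 0.16 (adjusted p = 0.000144). NHP2 had 119 and 119 TPM at 0 h, then 119 and 109.9 at 24 h, 111 and 113 at 48 h and lastly 98.6 and 67.5 at 72 h, with overlap of the 0 and 24 h pairs and -0.54 ± 0.16 (adjusted p = 0.00357) at 72 h. DKC1 (dyskerin), the pseudouridine synthase, had 182 and 179 TPM at 0 h and 165 and 126 at 72 h. Its change did not pass the test, with -0.32 ± 0.16 (adjusted p = 0.102) as deposited and -0.10 ± 0.07 (adjusted p = 0.22) after scaling. NOP10, the smallest subunit, had 108 and 108 TPM at 0 h, then 108 and 108 at 24 h, 123 and 125 at 48 h and lastly 111 and 79.7 at 72 h. Its 48 h pair was above all other libraries, with 0.19 ± 0.16 (adjusted p = 0.581) as deposited and 0.20 ± 0.05 (adjusted p = 0.0181) after scaling, and its 72 h change was -0.20 ± 0.16 (adjusted p = 0.338) as deposited and 0.02 ± 0.05 (adjusted p = 0.734) after scaling. The GAR1 to DKC1 ratio was 0.119 and 0.122 at 0 h and 0.0940 and 0.0888 at 72 h, and that of NOP10 to DKC1 was 0.595 and 0.603 at 0 h, 0.736 and 0.867 at 48 h, then 0.675 and 0.634 at 72 h.

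Nucleolar phosphoproteins and the genes grouped with them ranged widely. NME1, a nucleoside diphosphate kinase, had 207 and 207 TPM at 0 h, then 199.5 and 202 at 24 h, 193 and 190.5 at 48 h and lastly 133 and 101 at 72 h. Its first 3 pairs lay close together and the 72 h pair far below, with -0.83 ± 0.17 (adjusted p = 5.96e-06) against 0 h, and -0.72 ± 0.17 against 48 h (adjusted p = 0.000234). NOLC1 (Nopp140), a chaperone of snoRNPs, had 117 and 120.3 TPM at 0 h, then 96.2 and 96.1 at 24 h, 96.0 and 95.0 at 48 h and lastly 79.0 and 65.0 at 72 h. Its 24 and 48 h pairs lay together below the controls and the 72 h pair below those, with a 72 h change of -0.72 ± 0.16 (adjusted p = 6.93e-05). NCL had 689 and 679 TPM at 0 h and 592 and 436 at 72 h (-0.43 ± 0.17, adjusted p = 0.0362), and NPM1 had 1463 and 1426 at 0 h and 1470 and 1041 at 72 h (-0.22 ± 0.18, adjusted p = 0.329), which did not pass. After scaling the change of NCL was -0.21 ± 0.05 (adjusted p = 0.00574) and that of NPM1 -0.003 ± 0.05 (adjusted p = 0.971). The NPM1 to NCL ratio was 2.12 and 2.10 in the controls and 2.35 to 2.52 in the 6 siRNA libraries, so the pair did not move in parallel.

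MYBBP1A, a nucleolar protein that binds MYB and restrains ribosomal RNA transcription, was lowest at 48 h. It had 43.2 and 42.3 TPM at 0 h, then 32.8 and 31.0 at 24 h, 29.8 and 28.6 at 48 h and lastly 40.1 and 35.5 at 72 h. All 24 and 48 h libraries were below all 0 and 72 h libraries. The log2 change was -0.41 ± 0.16 (adjusted p = 0.404) at 24 h, -0.54 ± 0.16 (adjusted p = 0.0158) at 48 h and -0.18 ± 0.16 (adjusted p = 0.383) at 72 h. Between 48 and 72 h it changed by 0.36 ± 0.16 as deposited (adjusted p = 0.0780), and it rose by 0.57 ± 0.07 after scaling (adjusted p = 0.000312). In TPM the ratio of MYBBP1A to DDX21 was 0.311 to 0.354 in the control, 24 and 48 h libraries and 0.748 and 0.899 at 72 h.

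**Figure D4:**
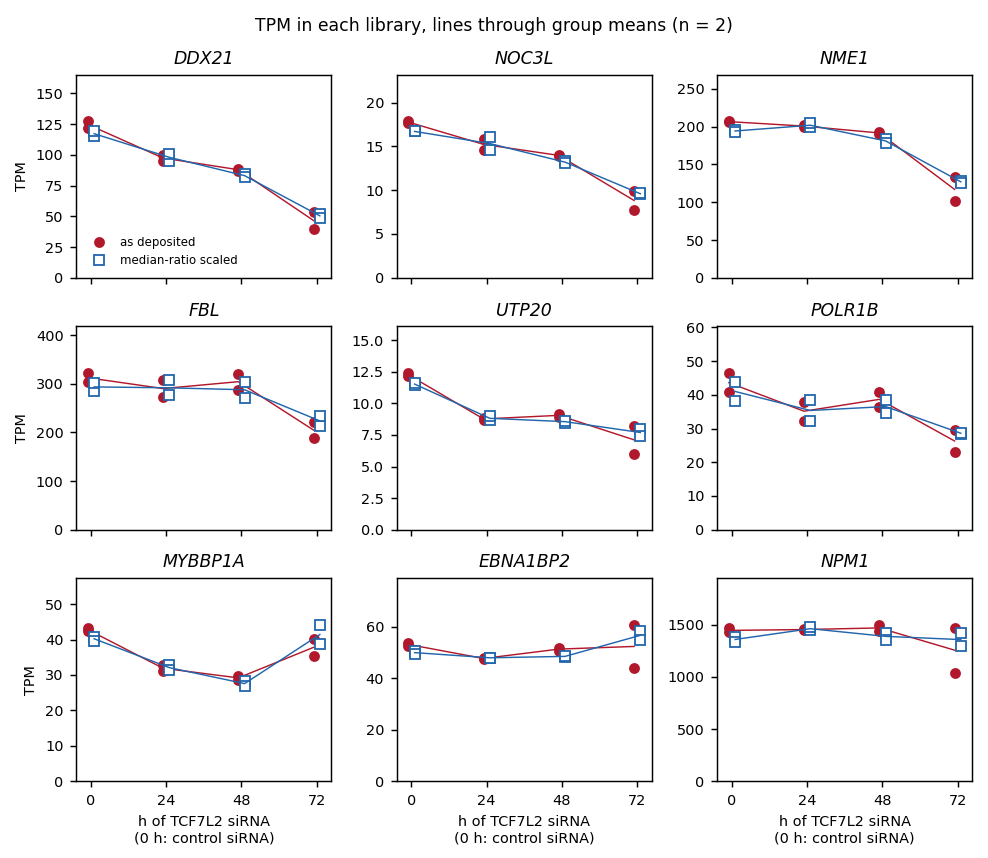
TPM (vertical axes, from 0) of 9 members in each library against the hours of TCF7L2 siRNA, with 0 h the control siRNA, as deposited (filled circles) and after median-ratio scaling (open squares), with lines through the means of 2 libraries. DDX21 and NOC3L are lower at every later time, NME1 and FBL are lower mainly at 72 h, and MYBBP1A is lowest at 48 h.

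RNA polymerase I was represented by its 2 largest subunits. Both fell at 72 h, as did 31.2% of all tested genes as deposited and 26.2% after scaling. POLR1B, the second largest, had 46.4 and 40.8 TPM at 0 h, then 32.3 and 38.0 at 24 h, 36.5 and 40.8 at 48 h and lastly 29.5 and 23.1 at 72 h. The 24 and 48 h pairs spread widely, the 48 h pair nearly touching the controls, and the 72 h pair was the lowest, with -0.72 ± 0.16 (adjusted p = 6.27e-05). After scaling the 24 and 48 h pairs of POLR1B overlapped the controls, and its 72 h change was -0.50 ± 0.09 (adjusted p = 0.00172). POLR1A, the catalytic subunit, had 22.0 and 22.2 TPM at 0 h, then 19.7 and 18.1 at 24 h, 18.0 and 15.9 at 48 h and lastly 18.4 and 13.1 at 72 h. Both 72 h libraries of POLR1A were below the controls, but its first 72 h library lay above the 48 h pair, and the change was -0.48 ± 0.16 (adjusted p = 0.00878) as deposited and -0.28 ± 0.08 (adjusted p = 0.0181) after scaling.

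Differences among the members do not depend on how a library is scaled once the mean log2 value of the 42 members is subtracted within each library. Relative to this mean and to the controls, DDX21 was at -0.90 and -0.93 in the 72 h libraries, NOC3L at -0.52 and -0.47 and NME1 at -0.32 and -0.30. At the other end EBNA1BP2 was at 0.51 and 0.46, DDX18 at 0.44 and 0.40 and GNL3 at 0.40 and 0.29. The 2 libraries of the 72 h group lay close together for these genes although their TPM sums differed. NOP14, at -0.12 in both libraries, and WDR43, at 0.03 and -0.02, lay near the mean of the set.

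From 24 to 48 h the count of members called depended on the scaling. As deposited 0 of 42 were called in limma's test, against 0.715% of all genes lower and 4.30% higher. Its unadjusted p was under 0.05 for 0 members as deposited and 17 after scaling, against 15.1 and 29.4% of all genes. After scaling 8 fell and 0 rose, against 6.47% of all genes lower and 7.56% higher. Those that fell were NOP56, NOP58, NME1, DDX21, NOC4L, NOP2, GNL3 and PPAN. Without the first or the second 72 h library the deposited count was 4 in each case. From 48 to 72 h 16 members fell and 0 rose as deposited, against 22.0% of all genes lower and 4.96% higher. After scaling 16 fell and 6 rose, against 19.4 and 20.5%, and 14 of the lower ones were called in both. The rises after scaling were those of MYBBP1A, NOP2, GNL3, EBNA1BP2, DDX18 and NOP56. Of these, MYBBP1A, NOP2, GNL3 and NOP56 had been among the 17 that fell at 48 h. The count as deposited was 2 without the first or the second 48 h library, 7 without either 0 h library, 8 without either 24 h library and 39 without the first 72 h library. After scaling, with the second 72 h library left out, 10 fell and 5 rose.

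A wider list of 116 other genes of ribosome biogenesis in the table was described the same way. At 72 h 66 (56.9%) fell and 1 rose as deposited, against 31.2% of all tested genes lower and 10.5% higher, with a median of -0.42 against -0.19. After scaling 59 (50.9%) fell and 13 rose, against 26.2 and 25.8%, with a median of -0.21 against 0.00. By class, 31 of 48 factors of the large subunit precursor, 22 of 42 of the small subunit, 7 of 13 exosome genes and 6 of 13 of the RNA polymerase I machinery fell as deposited, and KRR1 of the small subunit list alone rose. After scaling 27 fell and 5 rose in the large subunit list, 21 fell and 4 rose in that of the small subunit, 6 fell and 0 rose among exosome genes, and 5 fell and 4 rose in the RNA polymerase I machinery. EXOSC8, a core subunit of the RNA exosome that trims ribosomal RNA precursors, had 69.3 and 65.6 TPM at 0 h and 30.1 and 24.8 at 72 h (log2 change -1.27 ± 0.16, adjusted p = 1.12e-13). EXOSC5, another core subunit, fell by 1.10 ± 0.16 (adjusted p = 1.75e-10), and UTP18, a processome protein, by 1.05 ± 0.16 (adjusted p = 1.27e-09). KRR1, a processome factor, was the 1 gene that rose as deposited, from 178 and 185 TPM at 0 h to 294 and 197 at 72 h (log2 change 0.41 ± 0.17, adjusted p = 0.0362). At 48 h 4 of the 116 (3.45%) fell and 0 rose as deposited, a share near the 3.14% of all genes lower. After scaling 24 (20.7%) fell and 0 rose, against 11.5% of all genes lower and 12.0% higher. No test of a difference between the members and the wider list was made.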

How the data were processed

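The deposited values are TPM, which the authors made with RSEM after Trimmomatic and STAR on hg19, with FastQC, Picard and SAMtools also named, per the submitters' processing notes. Neither tool versions nor the annotation used are given in these sources. Genes with at least 1 TPM in at least 2 libraries were tested with limma 3.58.1 in R 4.3.3 on log2(TPM + 1). Fold changes on this scale understate the change of low genes. One model was fitted to all 8 libraries (4 residual degrees of freedom) for 5 comparisons, on the deposited and on the median-ratio scaled values. Tests were two-sided, with Benjamini-Hochberg adjustment over all 11894 genes at 0.05. The prior degrees of freedom, the weight limma gives to the spread shared by genes, were infinite as deposited and 5.41 after scaling. As deposited a gene's own spread thus had no weight, and the unlike 72 h pair entered the shared spread in every comparison. The median SE at 72 h was 0.162 as deposited and 0.0912 after scaling. The fit was also run on simulated data with independent normal noise for each gene and no shift of a whole library. That run does not cover a library like the second 72 h library.

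The members and lists were chosen with earlier results of these data known. Values in every library were given for the 2 members of each of 8 role classes with the largest 72 h change, members called at 24 or 48 h (at most 6), the 2 highest at 72 h, and at most 3 genes each way from a wider list (119 chosen, 116 in the table), and for some further members chosen after their values were seen. Promoter windows came from RefSeq (GRCh38.p14) and were matched by symbol. Alternatives covered scaling, pseudocount, filter, model, replicate block and each library left out.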

Additional observations from a re-analysis of the deposited data

Results flagged for a closer look

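In 5 members the step from 48 to 72 h ran opposite to a called change from 0 to 48 h, both after median-ratio scaling and by limma's adjusted p. MYBBP1A had a log2 change of -0.53 ± 0.07 at 48 h against 0 h (adjusted p = 0.00108) and then rose by 0.57 ± 0.07 (adjusted p = 0.000312). NOP2 fell by 0.36 ± 0.06 at 48 h (adjusted p = 0.00207) and then rose by 0.32 ± 0.06 (adjusted p = 0.00202). GNL3 fell by 0.27 ± 0.06 (adjusted p = 0.0125) and then rose by 0.31 ± 0.06 (adjusted p = 0.00363). NOP56 fell by 0.36 ± 0.05 (adjusted p = 0.00176) and then rose by 0.16 ± 0.05 (adjusted p = 0.0375). NOP10 went the other way, with 0.20 ± 0.05 at 48 h (adjusted p = 0.0181) and then -0.18 ± 0.05 (adjusted p = 0.0177). As deposited none of the 5 steps from 48 to 72 h passed limma's test: MYBBP1A had 0.36 (adjusted p = 0.0780), NOP2 0.11, GNL3 0.10, NOP56 -0.05 and NOP10 -0.39 (adjusted p = 0.0584). The 2 steps share the 48 h libraries.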

How the results depend on the processing

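Read depth is unknown and each group has 2 libraries, so the spread is estimated over all groups and, as deposited, over genes of like level. The count of members lower at 72 h stayed between 21 and 31 under each scaling, pseudocount, filter and empirical Bayes choice, and was 14 with the compared groups alone. Members lower at 48 h against 0 h numbered 0 with no filter, 17 with median-ratio scaling, 19 with quantile normalization, 26 with equal sums over listed genes, 18 with the compared groups alone, 16 with the replicate block and median-ratio scaling, and 17 with that scaling without the second 72 h library. In the same order of settings, where the count moved, members lower at 24 h numbered 2 (quantile), 3 (equal sums), 7 (compared groups) and 4 (scaled without that library). Members lower from 24 to 48 h numbered 8, 8, 11, 3, 8 and 9 (median-ratio, quantile, equal sums, compared groups, block with scaling, scaled without that library). From 48 to 72 h 4 were lower with no filter, 1 with the compared groups and 10 scaled without that library, and 6, 8, 6, 6 and 5 were higher (median-ratio, quantile, equal sums, block with scaling, scaled without that library). At 48 h and at 72 h against 0 h 1 member was higher under each of those 5, at 48 h also with the compared groups, as was 1 from 24 to 48 h. Leaving out each library in turn gave 0 to 7 members lower at 24 h, 0 to 19 at 48 h, 13 to 42 at 72 h, 0 to 4 from 24 to 48 h and 2 to 39 from 48 to 72 h, and 0, 0 to 1, 0 to 1, 0 to 1 and 0 to 5 higher. A lone library was assumed to vary like the other groups. These counts stand without the share of all tested genes under each setting, so they do not set the members apart from other genes.

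Signs turned for members near 0, listed as median-ratio, quantile, equal sums, block with scaling, and scaled without the second 72 h library. At 72 h EBNA1BP2 had 0.18, 0.25, 0.16, 0.18 and 0.23, DDX18 0.12, 0.17, 0.10, 0.12 and 0.16, NOP10 0.02, 0.10, 0.00, 0.02 and 0.08, and GNL3 0.04, 0.08, 0.02, 0.04 and 0.12. Leaving out a 72 h library as deposited, these 4 ranged from -0.26 to 0.19, -0.32 to 0.12, -0.44 to 0.04 and -0.43 to 0.08, positive without the second library. MYBBP1A had 0.04, 0.10, 0.02 and 0.04 under the first 4, and NOP2 0.01 with quantile normalization. From 48 to 72 h NOP56 had 0.16, 0.21, 0.20, 0.16 and 0.23, and from -0.31 to 0.20 as deposited with a 72 h library left out. NOP2 then had -0.10 to 0.31 and GNL3 -0.16 to 0.35, lowest without the first library. At 24 h NOP10 had 0.10, 0.10, 0.05, 0.10 and 0.10, and 0.00 without the first 0 h or the second 24 h library. The cause of these changes was not tested.

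Same-numbered libraries did not deviate together (6 correlations from -0.0869 to 0.107), and the main fit does not pair them. With 2 libraries a group these correlations cannot tell whether the numbers mark separate runs or cultures. With the replicate block 0 members were lower at 24 h, 2 at 48 h, 30 at 72 h, 0 from 24 to 48 h and 15 from 48 to 72 h, and 0 were higher in each. The block counts too are given without the share of all tested genes, so they do not set the members apart from other genes. Under 20 settings, single-member results kept direction and side of the threshold in 724 cases, passed it newly in 103, lost it in 49 and turned sign in 44.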
